A study of Mus musculus with 8 samples.

Results

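Oligodendrocyte precursor cells (OPCs) were picked from sorted single cells of the mouse dentate gyrus by detection of at least 3 of 5 precursor genes, which gave 4393 non-dividing OPCs among 14343 cells, 663 at 1 month and 3730 at 6-8 months. They differed between the ages in single genes of lineage progression, of signalling feedback and of the early response to stimuli. At 1 month the OPCs held more mRNA of Bmp4, a secreted bone morphogenetic protein, and of Bcas1, a gene of early myelinating cells. They also held more of Cnp, an enzyme of the oligodendrocyte lineage. However, the calls of Bcas1 and Cnp ended at equal depth per cell, with the OPCs chosen anew, and without a few committed cells. At 6-8 months they held more mRNA of Spry2, Spry4, Dusp6 and Etv5, which are switched on by growth factor receptors through the MAP kinase cascade, of Hes1, a target of Notch, and of Fosb, a subunit of the AP-1 transcription factor. Spry2, Etv5, Hes1 and Fosb were also called higher in astroglial cells of the same libraries, though Fosb was not higher in all 3 older libraries there. All these genes were called with edgeR, and an alternative test, DESeq2, did not call Bmp4, Bcas1, Cnp, Spry2, Dusp6 or Etv5. The log2 fold changes of the named genes ran from −1.90 for Bmp4 to 2.45 for Fosb, and the rise and fall are given relative to 1 library at 1 month.

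OPCs are dividing glial cells that give rise to oligodendrocytes throughout life. They are kept in the precursor state by growth factors such as PDGF-AA, the ligand of Pdgfra, and leave it through a committed stage in which Bmp4, Gpr17, Enpp6 and Bcas1 are known to be made before the main myelin genes. Receptor tyrosine kinases act through the MAP kinase cascade on ETS transcription factors, among whose targets are the Sprouty proteins and the phosphatase Dusp6, which then restrain the same cascade.

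The cells came from mice carrying Ki67-creERT2, Nestin-GFP and a tdTomato reporter, in which tamoxifen marks cells that are dividing and their descendants. All groups received tamoxifen on 6 days and were culled on day 8, and the dentate gyrus was dissociated with enzymes before cells with green fluorescence, with or without tdTomato, were sorted. The mice were heterozygous for these alleles, on a mixed C57BL/6J and CD1 background, of both sexes and pooled within an experiment. The libraries compared are 1 at 1 month and 3 at 6-8 months (the labels give 6 months, the study 6-8), all made with Version 3 droplet chemistry, and those at 2 months were made with Version 2 and enter no test below unless stated. The OPCs described here are those that passed this gate, not all OPCs of the tissue, and 82.4% of those at 1 month and 83.6%, 87.6% and 79.8% of those at 6-8 months held a UMI (a counted mRNA molecule) of the green reporter. Recombined reporter transcripts were found in 4.98% of the OPCs at 1 month and in 5%, 0.818% and 1.84% at 6-8 months.

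OPCs were chosen by their own counts. A cell with over 500 genes and under 10% mitochondrial UMIs was taken where at least 3 of Pdgfra, Cspg4, Lhfpl3, C1ql1 and Cacng4 were detected, with limits on genes of myelin (at most 1 of 5), of the cell cycle (at most 2 of 10) and of microglia, endothelium, astrocytes and neurons (at most 1 of 5). Of 15236 barcodes of the 4 Version 3 libraries 14343 were kept, and 4393 of these were non-dividing OPCs, 663 at 1 month and 3730 at 6-8 months (140, 1467 and 2123 per library). Exactly 3 of the 5 genes were found in 35 of the OPCs at 1 month and in 6, 34 and 51 at 6-8 months, while 20 cells at 1 month and 1, 32 and 36 at 6-8 months met the other limits with only 2 of the genes. Because the rule used them, these 5 genes are described by level and no test result is given for them. They stayed among the genes tested below. Pdgfra, the PDGF receptor, stood at 1022 CPM (the UMIs of a gene per 1e6 of the summed OPC UMIs of a library) at 1 month and at 1616, 1155 and 1159 at 6-8 months. Cspg4, the NG2 proteoglycan, stood at 361 CPM against 476, 423 and 562, and Lhfpl3 at 1497 CPM against 1465, 1704 and 1502. The transcription factors of the lineage, which the rule did not use, were present in nearly all of these cells. Olig1 was detected in 97.9% of the OPCs at 1 month and 99.0% at 6-8 months, Olig2 in 97.4% and 98.1%, and Sox10 in 89.1% and 93.6%.

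The OPCs made up 20.2% of the kept cells at 1 month and 5.56%, 43.5% and 41.1% at 6-8 months. The library with 5.56%, library 1 at 6-8 months, also had the fewest OPC UMIs (647634, against 4427658 at 1 month and 9896903 and 16963328 in the other libraries) and the lowest median per OPC (4537 UMIs, against 6304, 6712 and 8088). The sort and the number of other cells can set these shares, and oligodendrocytes made up 0.517% of the kept cells at 1 month but 65.2%, 26.5% and 23.4% at 6-8 months. Cells that passed as OPCs apart from the cycle limit, the dividing ones, were 18.1% of all OPCs at 1 month and 2.10%, 10.4% and 14.2% at 6-8 months. With every cell thinned to 3000 UMIs these shares were 8.53% against 0% (0 of 129 OPCs, which allows up to 2.33%), 4.68% and 6.84%. After thinning the whole rule was applied again, which gave 708 non-dividing OPCs at 1 month and 129, 1486 and 2193 at 6-8 months. Dividing OPCs went from 147 to 66 at 1 month and from 3, 170 and 350 to 0, 73 and 161 at 6-8 months. Values at 3000 UMIs thus differ in the set of cells as well as in depth. The 1 month share of dividing OPCs lay above all 3 older libraries in both forms, and it was not tested, since the smallest p of an exact permutation test over 3 libraries and 1 is above the threshold. Of the barcode sequences shared between libraries, 9 belonged to OPCs and 0 to OPCs of a pair of libraries.

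UMIs were summed over the OPCs of each library and the 6082 genes found in 20% or more of the OPCs at one of the ages were tested with edgeR's quasi-likelihood test. After Benjamini-Hochberg adjustment at 0.05, 91 genes (1.50%) were called, 67 higher (1.10%) and 24 lower (0.395%) at 6-8 months. The filter let in 800 genes through 6-8 months alone and 64 through 1 month alone, and 33 of the 67 and 10 of the 24 called genes passed in this way, through the age at which they were higher. Among them were Dusp6, Fosb, Junb, Nr4a1, Socs3, Maf, Jag1, Oprl1 and Pla2g16, and, of the lower genes, Bmp4, Hddc3, Gpx8, Lhx2, Gadd45g and Thrsp. With no filter 77 of the 91 were called. The spread comes from the 3 libraries at 6-8 months alone, each 1 experimental day with pooled mice, and the single library at 1 month is assumed to vary like them, so that age and that library cannot be told apart. The fit shared that spread between genes (infinite prior degrees of freedom against 2 residual ones), so a gene's own spread did not set its p. Groups of 3 and 1 often do not overlap: all 3 older libraries lay above the 1 month library in 26.2% of the genes tested and below it in 25.4%. At an unadjusted p under 0.05, 329 of the 6082 genes were higher at 6-8 months and 152 lower (edgeR). DESeq2 on the same sums called 30 genes, 29 of them among the 91. Of the genes called by edgeR and named below, DESeq2 also called Fosb, Pou3f1, Hes1, Tmem163, Ndn, Ptgds, Stmn1, Spry4, Ifi27, Pla2g16, Tmsb4x, Mfge8, Fos and Hspa5. Irx1, AC149090.1, Fign, Rph3a and Gfod2 were called by it too. It did not call Bmp4, Bcas1, Cnp, Spry2, Dusp6, Etv5, Maf, Hddc3, Junb, Socs3, Gadd45g, Oprl1, Meg3, Fabp5, Htra1, Chd3, Jag1, Nr4a1, Tle2, Pigz or Ttc9b. No adjusted p was given for Gpx8, Lhx2, Thrsp, Zc3hav1, Nol3 and Adat2.

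The promoter sequences of 4 genes on which the account below turns are given first, Spry2, Dusp6 and Etv5 from the group that was higher at 6-8 months and Bmp4 from the group that was lower. Each is the stretch of 250 bases upstream of the transcription start in RefSeq on GRCm38.p6, read 5′ to 3′ on the strand of the gene, at chr14:105896820-105897069 (minus strand) for Spry2, chr10:99262981-99263230 (plus) for Dusp6, chr16:22439571-22439820 (minus) for Etv5 and chr14:46390670-46390919 (minus) for Bmp4. Capitals mark GGAA or its reverse complement TTCC, the core that ETS factors bind.
Spry2: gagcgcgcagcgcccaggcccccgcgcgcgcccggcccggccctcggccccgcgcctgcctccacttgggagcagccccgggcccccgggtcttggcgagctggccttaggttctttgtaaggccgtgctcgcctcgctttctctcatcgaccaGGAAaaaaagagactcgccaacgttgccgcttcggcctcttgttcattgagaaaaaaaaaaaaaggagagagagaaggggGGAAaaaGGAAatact
Dusp6: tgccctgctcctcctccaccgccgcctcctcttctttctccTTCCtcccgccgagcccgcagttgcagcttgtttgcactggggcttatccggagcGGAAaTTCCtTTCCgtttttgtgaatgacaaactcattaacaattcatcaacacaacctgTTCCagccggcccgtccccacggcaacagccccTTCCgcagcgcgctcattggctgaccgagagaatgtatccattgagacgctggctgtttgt
Etv5: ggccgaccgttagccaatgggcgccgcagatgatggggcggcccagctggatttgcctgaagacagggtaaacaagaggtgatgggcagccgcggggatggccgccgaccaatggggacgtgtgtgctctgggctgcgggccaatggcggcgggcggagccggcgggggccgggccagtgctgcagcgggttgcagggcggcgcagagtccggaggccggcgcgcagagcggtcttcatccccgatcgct
Bmp4: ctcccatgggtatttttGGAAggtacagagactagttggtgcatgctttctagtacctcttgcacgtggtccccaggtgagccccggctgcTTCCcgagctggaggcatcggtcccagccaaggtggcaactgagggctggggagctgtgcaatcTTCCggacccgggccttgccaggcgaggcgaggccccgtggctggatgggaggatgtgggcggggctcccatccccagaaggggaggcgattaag
Dusp6 held 6 such cores, Spry2 and Bmp4 held 3 each and Etv5 held 0 (its window reaches into the gene as GENCODE M21 places it, from 22439719 on the minus strand), where the median of all 27025 promoters was 3 and 93.4% held at least 1. The longer form CCGGAA, searched on both strands and overlapping the core, was found in Bmp4 alone among these 4, in 12.2% of all promoters, in 24.2% of those of genes tested and in 10.6% of the 47 promoters matched among genes called higher. The AP-1 motif TGANTCA and the CREB motif TGACGTCA were in none of the 4 windows and in 6.87% and 1.62% of all promoters. A match describes the letters of this window only.

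Genes of lineage progression included Bmp4, which had the largest fall of the genes called in OPCs. Of 30 genes of committed precursors and newly formed oligodendrocytes, 16 passed the filter on low counts (Bmp4 through 1 month alone), 2 of these fell and 0 rose, and their median log2 fold change was −0.38, against 0.01 over all genes tested. With no filter the median was −0.13 over 29 genes, and by library that of the 16 was −0.70, −0.29 and −0.08, lowest in the shallow library 1. All 3 older libraries lay below 1 month in 10 of the 16 members and above it in 2 (25.4% and 26.2% of all genes tested). Of the 16 members, 7 were lower at an unadjusted p under 0.05 and 0 were higher. Over all 6082 genes tested, 152 were lower and 329 higher at that limit. After adjustment 0.395% of all genes tested were called lower and 1.10% higher.

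Bmp4 (chromosome 14, 46383520 to 46390669, minus strand) stood at 167 CPM in the OPCs at 1 month and at 17.2, 43.3 and 54.3 CPM at 6-8 months. Every older library was far below 1 month, and the lowest, library 1, held 11 UMIs of the gene. The log2 fold change was −1.90 ± 0.19 (SE) with an adjusted p of 8.63e-21 in edgeR. By cells, at 3000 UMIs each, Bmp4 was found in 19.1% of the OPCs at 1 month and in 6.20%, 7.13% and 8.21% at 6-8 months. Astroglial cells, which should lack the gene, held it in 0.496% at 1 month and in 0 of 127, 0 of 221 and 0 of 375 cells at 6-8 months, which allows up to 2.36%, 1.36% and 0.800%. DESeq2 did not call Bmp4 (adjusted p = 0.585).

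Bcas1 stood at 454 CPM at 1 month and at 145, 251 and 278 CPM at 6-8 months. It fell by 0.96 ± 0.19 on the log2 scale (adjusted p = 1.3e-04, edgeR). The share of OPCs with a UMI at equal depth overlapped, however, at 48.6% against 32.6%, 45.1% and 49.4%, while the UMIs per positive cell were 1.83 at 1 month and 1.33, 1.51 and 1.60 at 6-8 months. In libraries 2 and 3 the share was thus close to that at 1 month and the amount per positive cell was lower.

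Cnp, of the myelin list, stood at 458 CPM against 229, 239 and 317 CPM and fell by 0.79 ± 0.19 (adjusted p = 0.0054, edgeR). Cnp was the single called gene among 10 tested of 25 myelin genes, whose median was −0.03. With no filter the median was 0.37 over 24 myelin genes. Cd9, a tetraspanin of the committed stage, stood at 3168 CPM against 1830, 1947 and 1934 CPM and did not pass the test (log2 fold change −0.73 ± 0.22, adjusted p = 0.058). Gpr17, a receptor that marks the transition out of the precursor state, stood at 571 CPM against 312, 488 and 505 CPM (log2 fold change −0.37, adjusted p = 0.696), and Sirt2 had a log2 fold change of −0.39.

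The values of Bcas1 and Cnp moved with a small set of cells. OPCs with a UMI of Enpp6 or 9630013A20Rik, which mark committed precursors, were 8.45% of the OPCs at 1 month and 3.57%, 3.48% and 4.66% at 6-8 months (3.39% against 1.55%, 1.55% and 2.23% at 3000 UMIs). Both genes are members of the list, and leaving these cells out was added after the data were seen. Without these cells Bcas1 had a log2 fold change of −0.34 (adjusted p = 0.856, edgeR) and Cnp one of −0.27 (adjusted p = 0.958), and the median of the commitment list was 0.01, whereas Bmp4 had a log2 fold change of −1.64 and was still called. With barcodes thinned to 3000 UMIs and the OPCs chosen anew, Bcas1 had a log2 fold change of −0.39 (adjusted p = 0.575) and Cnp one of −0.34 (adjusted p = 0.633). Bcas1 and Cnp were also past the threshold no more without library 1 at 6-8 months (adjusted p = 0.129 and 0.237), nor Cnp without library 2 (adjusted p = 0.187).

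Other genes fell outside this lineage group. Hddc3 stood at 96.2 CPM against 60.8, 26.0 and 20.4 CPM (log2 fold change −1.83 ± 0.21), and Gpx8, a peroxidase of the endoplasmic reticulum, at 46.7 CPM against 3.12, 11.6 and 18.9 CPM (−1.69 ± 0.28). Tmem163, a zinc transporter, stood at 196 CPM against 98.3, 69.9 and 69.6 CPM (−1.40 ± 0.18). Ndn, an imprinted gene that restrains division, stood at 243 CPM against 125, 115 and 113 CPM (−1.06 ± 0.19). In each the 3 older libraries lay below 1 month, which the rule for naming them required. Adat2 (−1.12), Pigz (−1.06) and Ttc9b (−0.90) were also among the 15 largest falls. Hddc3, Gpx8, Adat2 and Pigz passed the filter through 1 month alone. Tmsb4x, which binds actin monomers, stood at 4526 CPM against 2820, 2774 and 2342 CPM (−0.78 ± 0.23, adjusted p = 0.040, edgeR), a call that ended without library 1 or library 2 (adjusted p = 0.344 and 0.221).

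Stmn1, which destabilises microtubules and is abundant in young neurons, stood at 287 CPM against 147, 140.4 and 112 CPM and was called (−1.14 ± 0.19, adjusted p = 4.06e-07, edgeR). The call turned on a part of the OPCs. The rule lets an OPC hold 1 myelin gene and 1 gene of another cell type. OPCs with such a gene were 11.3% of the OPCs at 1 month and 15%, 17.0% and 19.5% at 6-8 months. Stmn2 was found in 30 of them at 1 month and in 1, 27 and 29 at 6-8 months. Mag, a myelin gene, was found in 10 of them against 6, 68 and 149. These OPCs held 71.4% of the Stmn1 UMIs at 1 month (902 of 1264) against 41.5%, 40.2% and 35.4%. Without them Stmn1 stood at 97.8 CPM against 100.2, 103 and 95.3 CPM, a log2 fold change of 0.01. Fabp5, a fatty acid binding protein, also lost its call (−0.69 ± 0.19, and −0.30 without them, adjusted p = 0.887), whereas Bmp4 without them was at 144 CPM against 14.6, 31.7 and 39.9 CPM. In the remaining OPCs Stmn1 was thus at nearly the same level in all 4 libraries.

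**Figure D1:**
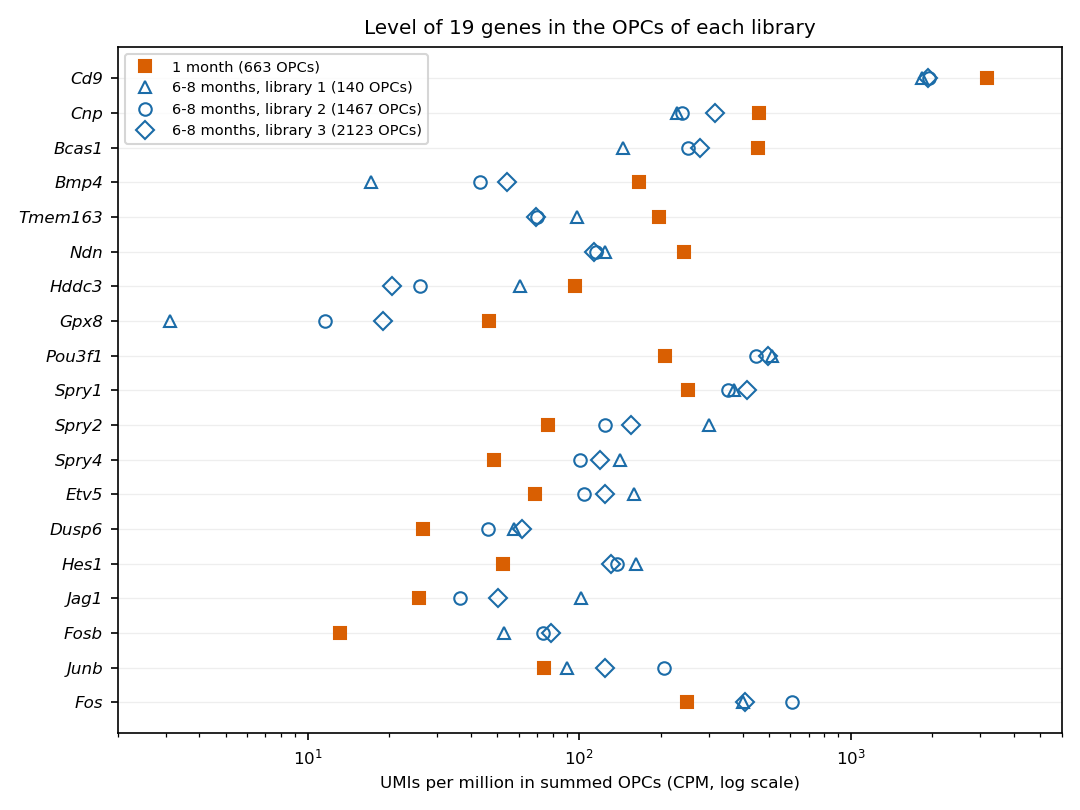
Level of 19 genes in the summed OPCs of each library, in CPM on a log axis, with the square for 1 month and open marks for the 3 libraries at 6-8 months. From Cd9 to Gpx8 the square lies to the right of all open marks and from Pou3f1 to Fos to the left of them (Cd9 and Spry1 did not pass the test, and Jag1 and Fos were added after their values were seen). For genes named by the size of their change, the naming rule required all 3 older libraries on one side.

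Targets and feedback inhibitors of receptor tyrosine kinase signalling had the highest median of the 14 lists plotted, a rank that was lost with no filter. There immediate early genes (0.46), myelin genes (0.37), transmitter receptors (0.36) and ion channels (0.29) stood above them. Of 18 such genes 10 passed the filter, 1 of them only through the older group (Dusp6), 4 rose and 0 fell. Of all genes tested 1.10% were called higher and 0.395% lower. In all 3 older libraries 8 of the 10 lay above 1 month, against 26.2% of all genes tested. Their median log2 fold change was 0.48 among those tested and 0.23 over all 18 with no filter, against 0.01 and 0.09 over all genes. In astroglial cells of the same libraries the median of the list was 1.01.

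Spry2 (chromosome 14, 105891947 to 105896819, minus strand), a Sprouty inhibitor of receptor signalling, stood at 76.9 CPM at 1 month and at 301, 125 and 156 CPM at 6-8 months. Spry4, its relative, stood at 48.8 CPM against 142, 100.4 and 119 CPM. All older libraries lay above 1 month in both genes, and library 1 was highest. The log2 fold changes were 1.21 ± 0.21 for Spry2 (adjusted p = 5.27e-06, edgeR) and 1.25 ± 0.22 for Spry4 (adjusted p = 2.22e-06). With a robust estimate of the spread, an alternative that was not planned, Spry2 was past the threshold no more (adjusted p = 0.631, edgeR).

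Dusp6 (chromosome 10, 99263231 to 99267489, plus strand), the phosphatase that inactivates ERK, stood at 26.5 CPM against 57.7, 46.1 and 61.4 CPM. Etv5 (chromosome 16, 22381309 to 22439719, minus strand), an ETS transcription factor, stood at 68.5 CPM against 159, 104 and 124 CPM. Neither overlapped between the ages, and they rose by 1.04 ± 0.25 and 0.85 ± 0.21 on the log2 scale (adjusted p = 0.0028 and 0.0049, edgeR). Etv5 was past the threshold no more without library 1 at 6-8 months (adjusted p = 0.093).

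Of the 6 members that did not pass the test, most had smaller differences above 0, and Ptpn11, a phosphatase named here after its value was seen, was lower in every older library (42.2 CPM against 31.2, 39.3 and 38.0). Spry1, another Sprouty gene, stood at 251 CPM against 373, 353 and 414 CPM (log2 fold change 0.60 ± 0.21, adjusted p = 0.190). Etv1 had a log2 fold change of 0.29 and Spred1, another inhibitor of the pathway, one of 0.18. At 3000 UMIs per cell the shares of OPCs with a UMI of Spry4 and Spry2 also lay higher in every older library. Spry4 was found in 12.3% at 1 month and in 25.6%, 25.4% and 30.4% at 6-8 months, with 0.794% and 1.57%, 1.81% and 2.4% in astroglial cells. Spry2 was found in 21.6% against 46.5%, 29.1% and 36.3%, and in 21.4% of the astroglial cells against 54.3%, 33.9% and 42.1%.

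**Figure D2:**
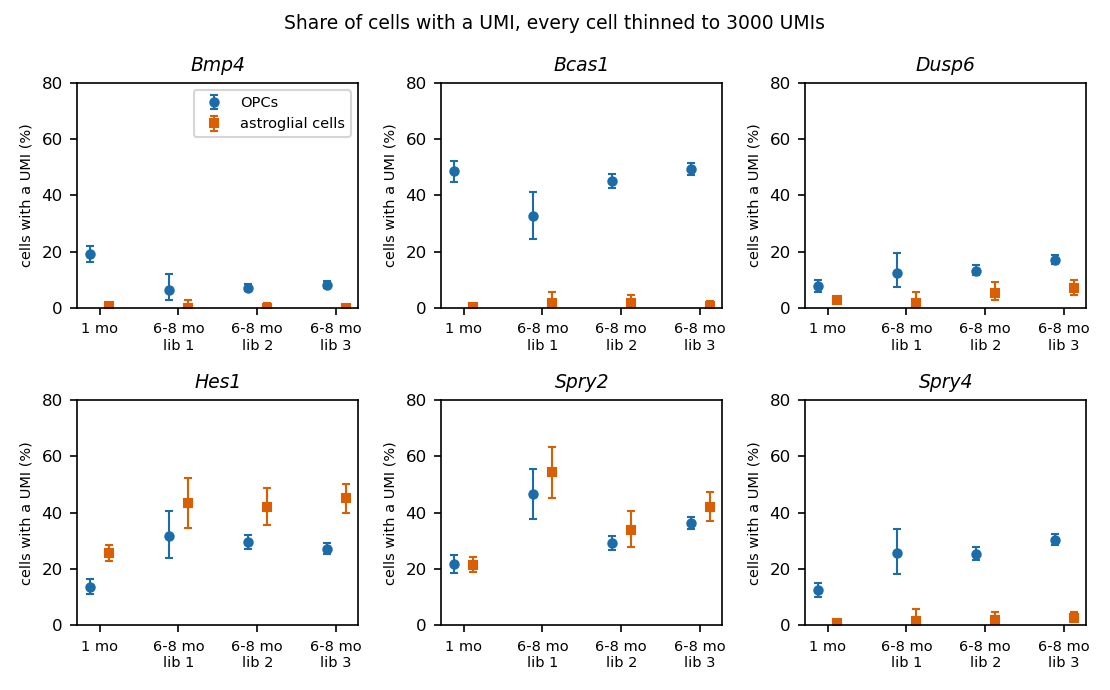
Share of OPCs (circles) and astroglial cells (squares) with at least 1 UMI of 6 genes in each library. Every cell was thinned to 3000 UMIs and the cell types were chosen anew. Bars are exact 95% binomial intervals that cover counting error only. In OPCs Bmp4 lies higher at 1 month (19.1%) than in any older library, Bcas1 overlaps, and Dusp6 (7.63%), Hes1, Spry2 and Spry4 lie lower at 1 month.

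A target of Notch and several transcription factors also rose. Hes1 (chromosome 16, 30064384 to 30067796, plus strand), a repressor that Notch induces, stood at 52.6 CPM at 1 month and at 162, 138 and 131 CPM at 6-8 months (log2 fold change 1.42 ± 0.22, adjusted p = 4.65e-08, edgeR). Jag1, a Notch ligand that was chosen after its value was seen, stood at 25.6 CPM against 101, 36.5 and 50.1 CPM (1.03 ± 0.25, adjusted p = 0.0047, and 0.261 without library 1). Pou3f1, a POU factor known from myelinating Schwann cells, stood at 208 CPM against 512, 449 and 497 CPM (1.22 ± 0.22, adjusted p = 1.49e-05). Maf, a bZIP factor, stood at 18.2 CPM against 115, 49.7 and 60.4 CPM (1.85 ± 0.26, adjusted p = 1.11e-09). Jag1 and Maf passed the filter through the older group alone. Also among the 15 largest rises were Zc3hav1 (1.66), Irx1 (1.57), AC149090.1 (1.55), Fign (1.55), Nol3 (1.37), Rph3a (1.33), Tle2 (1.28) and Gfod2 (1.27). All of these but AC149090.1 passed the filter through the older group alone. Zc3hav1, Irx1, AC149090.1, Fign and Rph3a were called under every alternative that gave a value.

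Immediate early genes are those that stimuli, enzymatic dissociation among them, are known to induce within minutes. The list used here held 34 genes, heat shock genes such as Hspa8 and Hsp90ab1 among them. Of the 34, 22 passed the filter, 8 of them only through the older group. Of the 22, 6 rose and 1 fell, where 1.10% and 0.395% of all genes tested did. The median of the 22 was 0.41 in OPCs and 0.37 in astroglial cells of the same libraries. Over all genes tested in OPCs it was 0.01. Of the 6, Fosb, Junb, Nr4a1 and Socs3 passed the filter through the older group alone, and the gene that fell, Gadd45g, through 1 month alone. By library the median was −0.01, 0.62 and 0.38, so that library 1 at 6-8 months showed no shift of the list. Fosb (chromosome 7, 19302696 to 19310051, minus strand) stood at 13.2 CPM against 53.0, 73.8 and 78.7 CPM (log2 fold change 2.45 ± 0.27, adjusted p = 9.4e-16, edgeR). Fos, which the rule for named genes did not take, stood at 250 CPM against 402, 610 and 407 CPM (0.93 ± 0.22, adjusted p = 0.0027). In both, every older library was above 1 month, and Fos was past the threshold no more without library 2 (adjusted p = 0.303).

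Junb and Socs3 rested on library 2. Junb, another AP-1 subunit, stood at 74.2 CPM against 90.5, 206 and 124 CPM (1.00 ± 0.21, adjusted p = 3.3e-04, edgeR), and Socs3, a feedback inhibitor of cytokine signalling, at 21.8 CPM against 21.8, 55.0 and 40.2 CPM (1.00 ± 0.26, adjusted p = 0.013). Without library 2 their adjusted p were 0.308 and 0.411. Nr4a1 and Hspa5, outside the rule as well, also rose (0.87 and 0.86), though not without library 1 (adjusted p = 0.052 and 0.075) or library 2 (adjusted p = 0.098 and 0.323), and the called member that fell was Gadd45g, at 73.3 CPM against 34.3, 44.6 and 30.7 CPM (−0.99 ± 0.21).

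Receptors and channels of neural signalling, through which OPCs sense neurons, had medians above 0 and few calls. Of 35 transmitter receptors 18 passed the filter, 9 of them, Oprl1 included, only through the older group. Of the 18, 1 rose, Oprl1, the nociceptin receptor, at 24.5 CPM against 42.1, 37.4 and 54.5 CPM (0.90 ± 0.26, adjusted p = 0.036, edgeR). Its adjusted p was 0.061 without library 1 and 0.312 without library 3. Of 35 ion channels 23 were tested, 7 of them through the older group alone, and 0 passed, with 4 higher and 0 lower at an unadjusted p under 0.05. At that limit 329 of the 6082 genes tested were higher and 152 lower. After adjustment 1.10% of all genes tested were called higher and 0.395% lower. The median log2 fold changes of receptors and channels were 0.40 and 0.36. In all 3 older libraries 12 of 18 and 18 of 23 members lay above 1 month, against 26.2% of all genes tested. With no filter the medians were 0.36 over 34 and 0.29 over 35 genes. Gria2 stood at 690 CPM against 664, 609 and 663 CPM. Gabbr1 stood at 254 CPM against 276, 267 and 297 CPM, and neither passed the test. In astroglial cells of the same libraries the medians of the tested receptors and channels were 0.73 and 0.66.

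Genes of OPC identity outside the rule had 0 calls among all 30 tested, with 1 higher and 0 lower at an unadjusted p under 0.05 and a median of 0.18 (edgeR). Over all 6082 genes tested, 329 were higher and 152 lower unadjusted. Of the 30, 18 lay above 1 month in all 3 older libraries and 3 below, against 26.2% and 25.4% of all genes tested. Matrix and adhesion genes (22 tested of 36, 5 higher and 2 lower unadjusted) and growth factor receptors with their ligands (17 of 35, 2 higher and 0 lower) had 0 calls and medians of 0.22 and 0.21. Of the 17 growth factor genes 6 passed through the older group alone, and with no filter the median of the 35 was 0.05. All 3 older libraries lay above 1 month in 14 of the 22 matrix genes and below it in 2. In the 17 growth factor genes they lay above it in 6 and below it in 1. Ptprz1, a phosphatase abundant in OPCs, stood at 2656 CPM against 3425, 3028 and 2747 CPM.

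Ribosomal protein genes had 0 calls among 82 tested of 85, but 66 of them lay below 1 month in all 3 older libraries (25.4% of all genes tested). At an unadjusted p under 0.05, 20 were lower and 0 higher, against 152 lower and 329 higher of all 6082. Their median was −0.33 (edgeR). Translation factors (33 of 34, 0 called, 0 higher and 3 lower unadjusted, median −0.16) and oxidative phosphorylation (73 of 80, 0 called and 0 in either direction unadjusted, median −0.12) also had medians below 0. All 3 older libraries lay below 1 month in 20 of the 33 translation factors and above it in 4. In the 73 genes of oxidative phosphorylation they lay below it in 36 and above it in 1. In astroglial cells of the same libraries the ribosomal median was −0.51. Growth and cycle genes (14 of 33) had 1 call in OPCs, Stmn1, and a median of −0.22. Of these 14, 9 lay below 1 month in all 3 older libraries and 2 above it. Genes of juvenile brain (22 of 40) had Meg3 higher (0.74), Tmsb4x and Fabp5 lower and a median of −0.23. Of these 22, 13 lay below 1 month in all 3 older libraries and 3 above it. The call of Meg3 ended without library 1 or library 3 (adjusted p = 0.394 and 0.105), and that of Fabp5 without library 1 or library 2 (adjusted p = 0.0996 and 0.115).

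**Figure D3:**
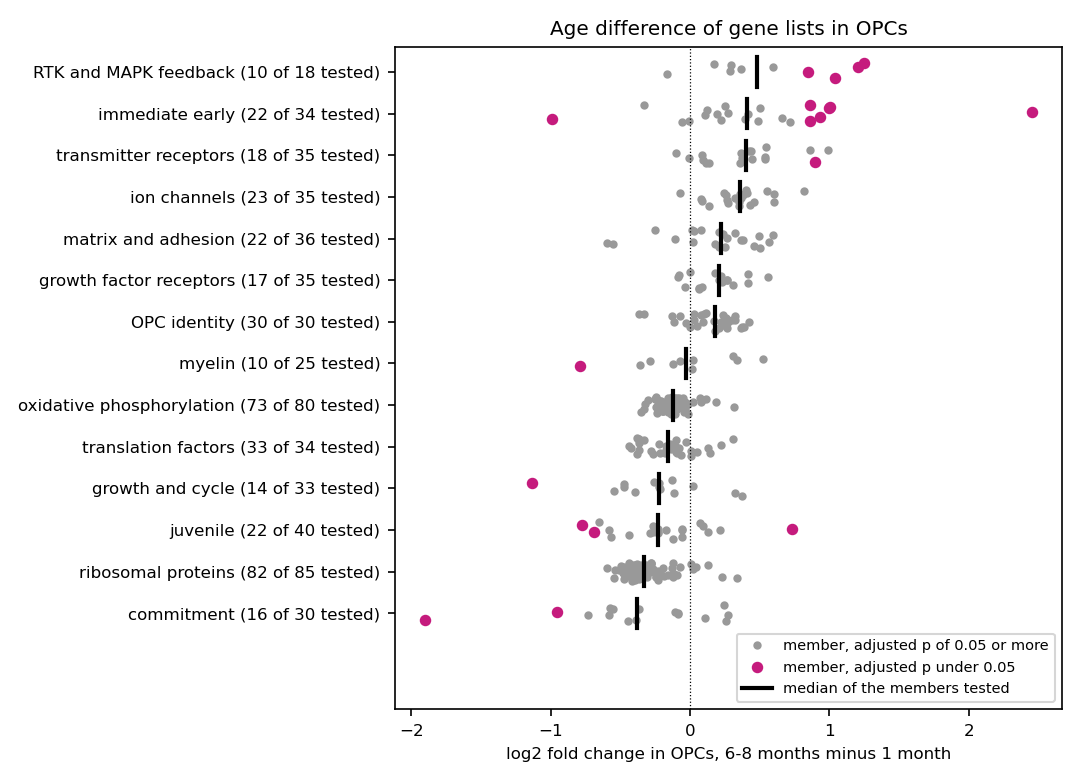
Log2 fold change in OPCs (6-8 months minus 1 month) of the tested members of 14 gene lists, large magenta points for members with an adjusted p under 0.05, small grey points for the others and a black bar for the median. The bars run from 0.48 for receptor tyrosine kinase feedback to −0.38 for commitment, and ribosomal proteins cluster near −0.33 with no called member.

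Lists of immunity, organelles and other cell types had medians between −0.07 and 0.34 where over 3 genes were tested. Interferon and MHC genes (9 tested of 36) had 1 call, Ifi27, at 152 CPM against 260, 315 and 292 CPM (0.95 ± 0.21, adjusted p = 0.0013, edgeR, and 0.053 without library 2), and a median of 0.18. Lysosome (28 of 33), cholesterol synthesis (17 of 25), chromatin (24 of 32) and stress and ageing genes (21 of 30) had 0 calls, medians of −0.01, −0.07, 0.04 and 0.00, and unadjusted counts of 0, 0, 2 and 0 genes, all lower. Among markers of other cells, 2 of 14 tested astroglial genes rose (Mfge8 by 0.89 and Htra1 by 0.76), and 0 of 11 neuroblast, 2 microglial and 3 vascular genes were called, with 1 lower, 0 and 2 higher at an unadjusted p under 0.05. The astroglial markers summed to 11495 CPM in the OPCs at 1 month and to between 13251 and 14858 at 6-8 months, and the microglial ones to 136 against 112 to 148, with 12 of 18 at 0 at 1 month. The neuroblast markers summed to 2779 CPM against 2459.5 to 2745 CPM, but several that were below the filter, chosen here after their values were seen, were higher at 1 month. Igfbpl1 stood at 100.3 CPM against 23.4, 22.2 and 13.3 CPM and Neurod1 at 42.0 CPM against 23.4, 7.16 and 5.34 CPM, each in under 20% of the OPCs, and Stmn2, an exclusion gene of the rule, at 33.4 CPM against 12.5, 8.80 and 6.02 CPM. The part of neuronal RNA in other genes that fell was not tested, beyond the values given for Stmn1, Fabp5 and Bmp4. The part of astroglial RNA in the rise of Mfge8 and Htra1 was not tested, and both calls ended without library 1 (adjusted p = 0.053 and 0.084), that of Htra1 also without library 2 (0.453).

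Astroglial cells of the same 4 libraries (1046 at 1 month and 194, 248 and 399 at 6-8 months), which passed through the same dissociation and sort, were compared with the OPCs. In them 204 of 6476 genes (3.15%) were called between the ages (148 higher, 2.29%, and 56 lower, 0.865%), and of the 91 genes called in OPCs 24 were called in the same direction, 0 in the opposite one and 67 not. Shared calls included Fosb (2.24 in astroglial cells), Hes1 (0.97), Spry2 (1.22), Etv5 (1.59), Ndn (−1.05), Gpx8 (−1.00) and Hddc3 (−1.31). The differences between the cell types in these 7 genes did not pass the interaction test (adjusted p from 0.109 to 0.970, edgeR with the library as a block), which does not show that they changed alike. Fosb stood at 11.2 CPM in astroglial cells at 1 month and at 7.35, 49.8 and 79.1 CPM at 6-8 months, so library 1 lay below 1 month there. Of the feedback genes called in OPCs, Spry4 and Dusp6 were not called in astroglial cells (1.59 and 0.92, adjusted p = 0.207 and 0.128). Astrocytes and neural stem cells, which the Nestin-GFP line labels, were not separated among the astroglial cells. Whether this mix differed between the ages was not tested.

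The difference of the age differences passed the interaction test for 209 of 6476 genes (3.23%), with 97 higher (1.50%) and 112 lower (1.73%) in OPCs than in astroglial cells. It passed for 13 of the 91 called in OPCs, themselves chosen from the same OPC sums. Ptgds, the prostaglandin D synthase of glia, rose in OPCs from 55.8 CPM to 140.4, 161 and 116 CPM, while astroglial cells were at 317 CPM against 259, 223 and 171 CPM, and the difference was 1.97 ± 0.15 on the log2 scale (adjusted p = 1.28e-07, edgeR). Ifi27 likewise differed by 1.28 ± 0.14, with 221 CPM against 171, 162 and 201 CPM in astroglial cells. Cnp differed by −0.80 ± 0.13, with 137 CPM against 122, 138 and 164 CPM in astroglial cells. Oligodendrocytes made up 0.517% of the kept cells at 1 month and 65.2%, 26.5% and 23.4% at 6-8 months, and the part of their free RNA in the Ptgds values was not tested. In astroglial cells these 3 genes did not pass the test between the ages (adjusted p = 0.167, 0.552 and 0.933).

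A few genes called lower in OPCs are far more abundant in astroglial cells. Lhx2, a transcription factor of neural stem cells and astrocytes, stood at 52.0 CPM against 20.3, 20.3 and 24.8 CPM in OPCs and at 446 CPM against 472, 489 and 484 CPM in astroglial cells, a difference of −1.26 ± 0.16. Thrsp, a regulator of lipid synthesis, stood at 48.1 CPM against 15.6, 26.1 and 25.2 CPM in OPCs and at 1564 CPM against 1597, 1799 and 1434 CPM in astroglial cells, a difference of −0.93 ± 0.19. Astroglial cells were 31.8% of the kept cells at 1 month and 7.70%, 7.35% and 7.73% at 6-8 months, and the part of their free RNA in these OPC values was not tested. Lhx2 and Thrsp passed the filter through 1 month alone, and the call of Thrsp ended without library 1 (adjusted p = 0.070). Bmp4 stood at 1.55 CPM in astroglial cells at 1 month, against 167 CPM in OPCs.

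**Figure D4:**
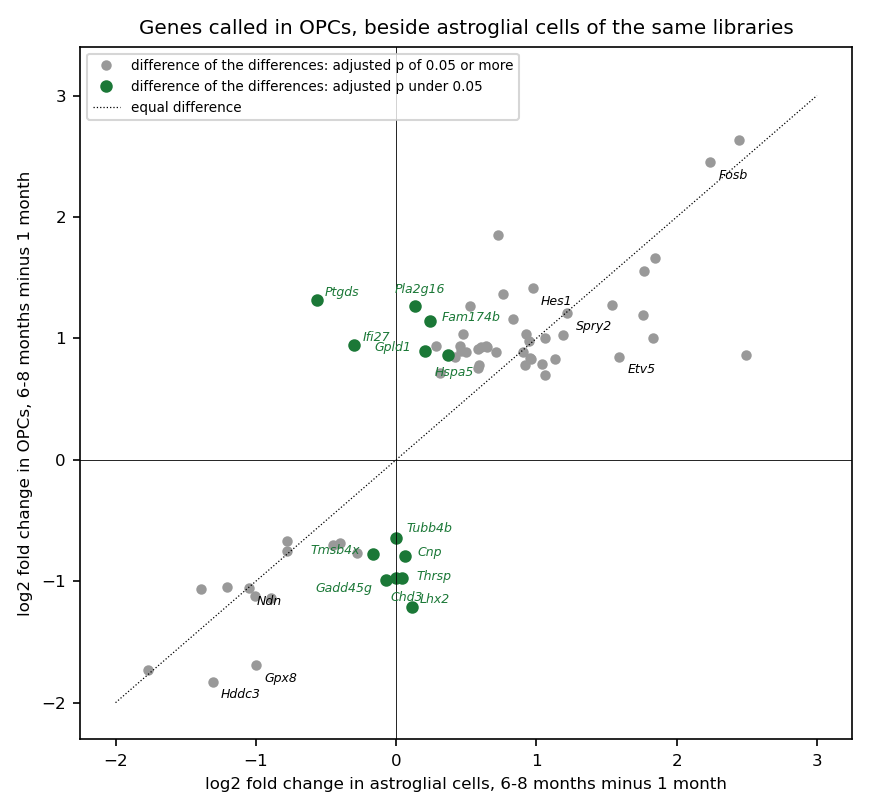
Log2 fold change (6-8 months minus 1 month) in OPCs against that in astroglial cells for the 66 genes called in OPCs that reached 10 CPM in an age group of astroglial cells, with the 13 past the interaction test in green and a dotted line of equal difference. Fosb, Hes1, Spry2 and Ndn lie near the line, and Ptgds, Ifi27, Cnp, Lhx2 and Thrsp lie near or beyond 0 on the astroglial axis.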

How the data were processed

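Single cells of the dentate gyrus were profiled in 8 droplet libraries. The authors mapped the reads with Cell Ranger 3.0.2 to mm10-3.0.0 with reporter elements added, and the deposited table, merged without normalization, holds raw UMI counts per gene and barcode (31058 features, 26036 barcodes). Barcode suffixes gave the library and the labels its group. Here the barcodes kept had more than 500 genes and a mitochondrial share below 10%, and no doublet caller was run beyond the limits on genes of other cells. Free RNA was not removed. The counts of the OPCs of each library were summed. Differences were tested with edgeR 4.0.16 in R 4.3.3 (quasi-likelihood, TMM scaling, two-sided, Benjamini-Hochberg over all genes tested), with DESeq2 1.42.0 as an alternative. Adjusted p-values of the OPC age test measure a spread between libraries that rests on the 3 at 6-8 months. That spread was shared between genes and is not each gene's own. The interaction test shared its spread in part (prior degrees of freedom 18.2). Errors of log2 fold changes are SE of the fit in question. Astroglial cells were chosen by at least 3 markers and at most 1 OPC gene, and the interaction test had the library as a block. Binomial intervals are exact (95%) and cover counting error only, as do limits for a count of 0, taken as 3 counts. The test was run on simulated counts first.

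The OPC rule, the gene lists and the tests were chosen with earlier results of these data known, so no list is independent support. Named genes are the 15 with the largest change in each direction (adjusted p under 0.05, all 3 libraries on one side, at least 30 CPM in the higher group) and, of each list, up to 4 called members and up to 3 others of highest level. Unnamed gene models, reporter, sex-linked, mitochondrial and rule genes were left out. 107 genes were named by it and 42 of these were called. Fos, Jag1, Nr4a1, Hspa5, Ptpn11, Igfbpl1, Neurod1 and Stmn2 fell outside it and were picked with values known. Gene coordinates are from GENCODE M21 on GRCm38, the same build in another annotation release. Promoters were found for 64 of the 91 called genes and 13 of the 18 feedback genes. The alternatives were other scalings, filters, OPC limits, thinned barcodes, the 2-month libraries, leaving out each library and, not planned, a robust estimate of the spread. After thinning the cells were chosen anew by the same rule.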

Additional observations from a re-analysis of the deposited data

Results flagged for a closer look

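In 9 genes named above the difference between the ages in OPCs departed from that in astroglial cells of the same libraries, by edgeR's interaction test with the library as a block. The value given is the log2 fold change in OPCs minus that in astroglial cells. It was 1.97 for Ptgds (adjusted p = 1.28e-07), 1.28 for Ifi27 (adjusted p = 1.73e-05) and 1.16 for Pla2g16, a phospholipase (adjusted p = 1.7e-04), all of which rose in OPCs. It was −1.26 for Lhx2 (adjusted p = 7.17e-05), −1.02 for Gadd45g (adjusted p = 6.3e-04), −0.98 for Chd3, a chromatin remodeller (adjusted p = 0.0046), −0.93 for Thrsp (adjusted p = 0.0062), −0.80 for Cnp (adjusted p = 7.1e-04) and −0.56 for Tmsb4x (adjusted p = 0.024), all of which fell in OPCs. Ptgds, Ifi27, Pla2g16, Lhx2, Gadd45g and Thrsp stood higher in astroglial cells than in OPCs at 1 month. Ifi27 stood at 221 against 152 CPM, Pla2g16 at 160 against 29.95 CPM and Gadd45g at 356 against 73.3 CPM. Astroglial cells were a larger share of the kept cells at 1 month (31.8% against 7.35% to 7.73%). Oligodendrocytes were a larger share at 6-8 months (23.4% to 65.2% against 0.517%). The part of free RNA of either cell type in the OPC values was not tested. These genes were taken from the 91 called in OPCs, 13 of which passed the interaction test, against 3.23% of all genes tested in it. The interaction test uses the same OPC sums that gave the 91 calls, so a higher share among them is built in.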

How the results depend on the processing

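The 91 calls in OPCs became 30 with DESeq2, 212 with no filter on low counts, 231 with a filter of 10 UMIs in 2 libraries, 43 with barcodes thinned to 3000 UMIs (2939 genes tested) and 29 with the 2-month experiments added. A robust estimate of the spread, which was not planned, gave 88 calls, 87 of them among the 91, and ended that of Spry2. Leaving out 1 library at 6-8 months gave 62 to 140 calls (62 without library 1, 66 without library 2 and 140 without library 3), of which 61, 57 and 84 were among the 91. Of the 42 called genes named by the rule, 13 were past the threshold under every alternative that gave a value, 25 in all 3 fits without a library and 17 in DESeq2. Their direction held in 41. It turned for Stmn1, with a log2 fold change of 0.0105 without OPCs that held a myelin gene or a gene of another cell type. The 209 interaction calls became 74 after thinning (3377 genes tested) and 109 to 393 without 1 library (393 without library 1, 109 without library 2). The median of the feedback list was 0.23 with no filter and 0.22 with the filter of 10 UMIs, and that of the commitment list turned to 0.0088 without OPCs that held Enpp6 or 9630013A20Rik, an alternative added after the data were seen. Thinning gave shares of OPCs of 23.1% at 1 month and 48.9% and 45.5% in libraries 2 and 3, and of dividing OPCs of 8.53%, 0%, 4.68% and 6.84%. Why calls changed was not tested, beyond the fewer genes and the changed set of cells of thinning and the fewer samples of leaving out a library. No paired analysis was possible because replicate numbers were given in accession order and 1 month has 1 library. The comparison of OPCs with oligodendrocytes was not run, since 1 month held 17 oligodendrocytes, under the minimum of 20. The 1 month library and the shallow library 1 at 6-8 months (140 OPCs) limit every value.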

Other observations

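Libraries at 2 months were made with Version 2 chemistry, so that age and chemistry cannot be told apart, and their 3 experiments are given as values, with CPM scaled over all ages together. In the OPCs at 2 months Bmp4 stood at 47.9, 62.1 and 22.002 CPM, of which 62.1 lay above the highest library at 6-8 months (53.2 on the same scaling) and all lay below 1 month (165). Bcas1 stood at 137, 139 and 139 CPM, below all libraries at the other ages. Of the feedback genes, Dusp6 stood at 85.3, 106 and 82.0 CPM and Spry2 at 183, 354 and 285 CPM, above the 1 month library in each experiment. Dusp6 also lay above every library at 6-8 months (57.1, 45.8 and 60.2 CPM on the same scaling). Etv5 stood at 142, 179 and 163 CPM, also above 1 month. With these experiments added, edgeR did not call Spry2, Dusp6, Etv5, Hes1 or Cnp between 1 month and 6-8 months (adjusted p = 0.102, 0.059, 0.142, 0.060 and 0.263). It still called Bmp4, Bcas1, Spry4 and Fosb. Fosb, at 32.3, 14.6 and 19.002 CPM, lay between the 1 month library and the older ones in each experiment. Pou3f1, at 149.9, 69.4 and 106 CPM, lay below the libraries of both other ages, and Ptgds, at 273, 767 and 273 CPM, above them.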
